A study of Mus musculus with 12 samples.

Results

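The thioredoxin and NADPH-producing genes described here are 10 genes, of 52535 listed in the count files, picked by symbol for their known roles, with earlier results of these data known. They are Txnrd1, Txn1, Srxn1 and Prdx1 of the thioredoxin system, G6pdx, Pgd, Taldo1 and Tkt of the pentose phosphate pathway, and the NADPH-linked enzymes Me1 and Nqo1. All 10 were found in the files. Their mRNA was counted in 3 mouse T-cell acute lymphoblastic leukemia (T-ALL) lines, named 240, 242 and 352, with 1 control and 1 inhibitor-treated library per line, so that each group held 3 libraries. The agent was β-Catenin/Tcf Inhibitor II, a small molecule with a PKF code name (spelled out in the plots) named as an inhibitor of the β-catenin/Tcf complex. Every library, controls included, came from cells that are double transgenic for Akt2 and Dlx5, and the controls received placebo according to the study. In the study, the Lck promoter drives both transgenes in immature T cells, the Akt2 protein is a permanently active myristoylated form, and each line was grown from a thymic tumor of a different mouse. The labels give no strain, age, dose or time and refer to the study for the treatment. The comparison asked how genes that supply and use reducing power followed the inhibitor. With 1 library per line and group, p-values of the gene tests rest on the spread between the lines, partly pooled over all genes. A supplementary legend of the study speaks instead of separate control and treated cultures within each line. If the pair of files per library held such cultures, the spread between them was not used here.

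Thioredoxin, the product of Txn1, is a small protein that reduces disulfide bonds in other proteins and is returned to its reduced form by thioredoxin reductase (Txnrd1) with electrons from NADPH. Prdx1, a peroxiredoxin, breaks down hydrogen peroxide with electrons from thioredoxin, and sulfiredoxin (Srxn1) rescues peroxiredoxins that have been over-oxidized. NADPH itself is made in the cytosol by glucose-6-phosphate dehydrogenase (G6pdx) and phosphogluconate dehydrogenase (Pgd), the oxidative branch of the pentose phosphate pathway, and by malic enzyme (Me1), whereas transketolase (Tkt) and transaldolase (Taldo1) shuffle sugars between that pathway and glycolysis. Nqo1 uses NADPH or NADH to reduce quinones. Many of these genes are known targets of NRF2 (gene Nfe2l2), a transcription factor that is released from its inhibitor Keap1 under oxidative or electrophilic stress and binds antioxidant response elements together with small Maf proteins.

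Total counts ran from 604984 in the treated library of line 242 to 13766638 in that of line 352. The treated library of line 242 also stood apart in its share of mitochondrially encoded counts, 11.8% against 1.84% to 3.10% in the other 5. The summed unscaled level of 13 thymocyte markers was 4412 to 6040 CPM (counts scaled to a common library size) in controls and 2780 to 6415 CPM in treated libraries, and every marker was detected in at least 1 library. Cd5 had at most 14 counts in any library and 0 in both of line 242, and Ptcra had 55 and 0 counts in control and treated cells of line 242. Each result is therefore given for all 3 lines and for lines 240 and 352 alone.

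Sequence upstream of the members was searched for the core of the antioxidant response element, to show which promoters carry it. In the RefSeq promoter set (build GRCm38.p6, all 10 members matched, 14 start sites), the 250 bases before each start were read on both strands for TGACNNNGC and TGAGNNNGC. Of 32851 promoters of this length, 10.2% held the first, 14.4% the second and 23% at least 1 of them. At least 1 match was found for Txnrd1, Srxn1, Prdx1, G6pdx and Taldo1, and none for Txn1, Pgd, Tkt, Me1 and Nqo1. Members are listed by gene, with a match at any start, whereas the shares above are per promoter, so the counts are not directly comparable. The sequences below run 5′ to 3′ on the strand of the gene, with the matched letters in capitals, and a match on the other strand is seen as its reverse complement.
Srxn1, chr2:152105341-152105512, plus strand: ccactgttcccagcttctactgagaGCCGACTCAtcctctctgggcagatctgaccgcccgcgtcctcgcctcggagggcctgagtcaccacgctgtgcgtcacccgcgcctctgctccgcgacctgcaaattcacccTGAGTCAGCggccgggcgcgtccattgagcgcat
Prdx1, chr4:116685441-116685499, plus strand: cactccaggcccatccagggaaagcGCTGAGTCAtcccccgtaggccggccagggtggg
Txnrd1, chr10:82859089-82859147, plus strand: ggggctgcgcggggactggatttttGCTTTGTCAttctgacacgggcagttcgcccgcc
Taldo1, chr7:141391914-141391972, plus strand: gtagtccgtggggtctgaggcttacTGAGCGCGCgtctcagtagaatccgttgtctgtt
The nearer match of Srxn1, 45 bases upstream of the start, reads TGAGTCAGC, and the match of Prdx1, 133 bases upstream, reads TGACTCAGC on the other strand. Both overlap the letters of an AP-1 site (TGAGTCA or TGACTCA). The match of Txnrd1 belonged to 1 of its 3 listed starts, 92 bases upstream, and that of Taldo1 lay 221 bases upstream. The match of G6pdx, 57 bases upstream of the RefSeq start, sits in a stretch that overlaps an annotated exon of the gene in GENCODE vM21, and its sequence is not shown. These matches describe letters in a window, and no match says nothing of regulation from elsewhere.

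Relative abundance differed widely between the members. Per kilobase of exon, controls held most Txn1 mRNA, at 355 ± 28.6 CPM per kb (SD, n = 3), followed by Prdx1 at 155 ± 37.5. Txnrd1 (86.4 ± 42.6), Taldo1 (76.9 ± 9.31) and Tkt (75.5 ± 17.8 CPM per kb) came next, and on this scale did not differ beyond their spread. G6pdx had 33.3 ± 8.77 and Pgd 17.1 ± 4.99 CPM per kb. Lengths count the exons of all annotated transcripts of a gene, merged, and the order depends on them. Before division, control means were 555 CPM for Tkt against 167 for Taldo1, and 110 for Pgd against 103 for G6pdx. Nqo1 had 13.6 ± 22.1, an SD above its mean, and Srxn1 and Me1 were close to 0. Among the pentose phosphate members, both non-oxidative enzymes had higher mean levels than both oxidative ones.

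After the inhibitor, 6 of the 8 members that passed the filter on low counts were higher in lines 240 and 352: Txnrd1, Prdx1, G6pdx, Pgd, Taldo1 and Nqo1. Txn1 and Tkt did not pass the threshold in either direction, and no member was lower. In that fit (edgeR quasi-likelihood test, Benjamini-Hochberg adjusted p below 0.05, n = 2 lines, cell line as a block), 5.01% of 11760 genes were higher and 5.92% were lower. The median log2 fold change was 0.63 over the 8 members and -0.0057 over all genes tested. The fit rests on 1 residual degree of freedom, so its SE and p-values lean on spread pooled over genes. Nqo1 changed by 2.89 in line 240 and 0.82 in line 352, against an SE of 0.24. Without the line as a block, 0 members and 0 genes passed. When DESeq2 was used in place of edgeR, 3 members passed (Txnrd1, Pgd and Prdx1), and over all genes 107 were higher and 158 lower.

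With line 242 included, 0 of 10331 genes passed in either direction (0% higher and 0% lower), and so none of the members. At an unadjusted p below 0.05, 5 of the 8 members were higher and 0 lower, whereas 2.49% of all genes were higher and 3.03% lower. Nqo1, among these 5, had 5 counts in each control of lines 240 and 242. It passed the filter in this fit only through its treated libraries, so its place in the count is not independent of the treatment. In the same 3 lines DESeq2 and the edgeR likelihood ratio test each placed 2 members past an adjusted p of 0.05, Txnrd1 and Pgd. With sample weights, limma voom placed 5, Txnrd1, Prdx1, G6pdx, Pgd and Nqo1. Over all genes, DESeq2 placed 35 higher and 10 lower, the likelihood ratio test 56 and 29, and limma voom 327 and 474. In direction, 6 of the 8 members had a log2 change above 0 in each of the 3 lines, against 13.9% of all genes tested. These 6 were the same genes that passed in lines 240 and 352. Both counts use those lines, so the match is not separate support. In line 242, Taldo1 was above 0 by only 0.011. Libraries are bulk RNA, so a change in RNA per cell and a change in the make-up of the culture cannot be told apart.

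Thioredoxin reductase had the largest log2 fold change of the 3 tested thioredoxin-system members in lines 240 and 352. Txnrd1 (chromosome 10, 82833951 to 82897712, mm10) went from 473 to 1135 CPM in line 240 and from 406 to 673 CPM in line 352. In line 242 it went from 959 to 1872 CPM. The treated library was above its own control in each line, but the groups overlapped, because the control of line 242 exceeded the treated library of line 352. The means were 612 ± 302 CPM in controls and 1227 ± 605 CPM after treatment (SD, n = 3). Over 3 lines the log2 fold change was 1.02 ± 0.21 (SE, adjusted p = 0.842). Lines 240 and 352 gave 0.99 ± 0.14 (adjusted p = 0.00135).

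For its substrate thioredoxin, no change passed the test. Txn1 (chromosome 4, 57943373 to 57956411) had 348 and 383 CPM in line 240, 407 and 237 CPM in line 242, and 367 and 373 CPM in line 352, for control and treated cells in that order. Controls lay within a narrow range, and of the treated libraries only that of line 242 fell outside it by more than the 30.1 CPM SD of the controls. In log2 terms the change was -0.16 ± 0.22 across the 3 lines (adjusted p = 0.918) but 0.079 ± 0.11 for lines 240 and 352 alone (adjusted p = 0.707). Over 3 lines the sign of Txn1 turned with limma voom (0.0080) and without line 242.

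Prdx1 (chromosome 4, 116685544 to 116700822), the peroxiredoxin that thioredoxin serves, went from 404 to 602 CPM in line 240, from 604 to 744 CPM in line 242 and from 410 to 591 CPM in line 352. All 3 treated libraries were higher than their own control, by amounts close to each other in lines 240 and 352. On this scale the control of line 242 lay just above the treated libraries of the other lines. Without scaling it had 576 CPM and the treated libraries 601, 716 and 622 CPM in lines 240, 242 and 352, so that the groups did not overlap. Over 3 lines the log2 fold change was 0.50 ± 0.17 (SE, adjusted p = 0.842). Lines 240 and 352 gave 0.55 ± 0.11 (adjusted p = 0.00963). A pair of processed pseudogenes with over 95% identity to Prdx1, Gm21399 and Gm7204, together had 12 counts in all libraries, so few reads were assigned to them.

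**Figure D1:**
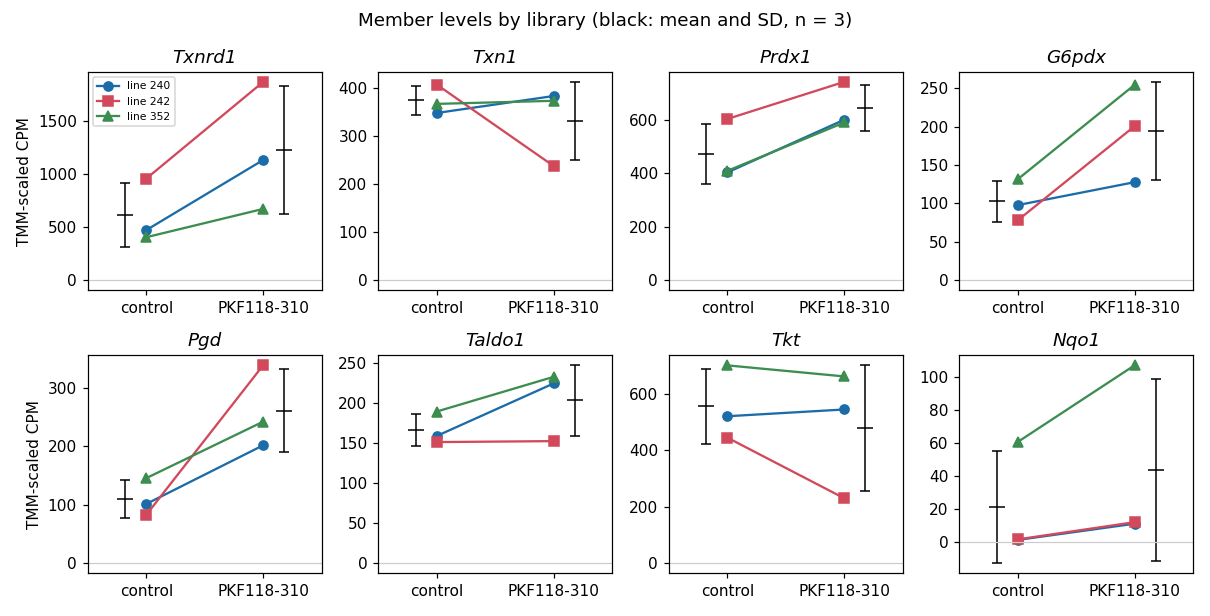
TMM-scaled CPM (vertical axes, from 0) of 8 members in control and treated libraries, with 1 point per library, a line joining the libraries of a cell line, and the mean and SD (n = 3) in black. Txnrd1, Prdx1, G6pdx, Pgd and Nqo1 are higher after treatment in each line, Txn1 and Tkt are near level in lines 240 and 352 and lower in line 242, and Nqo1 is far higher in line 352 than in the others.

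Within each library the ratio of Txnrd1 to Txn1 counts, which needs no scaling between libraries, was higher after treatment in each line. It went from 1.36 to 2.96 in line 240, from 2.36 to 7.90 in line 242 and from 1.11 to 1.81 in line 352. The folds were 2.18, 3.35 and 1.63. The mean log2 change of the ratio was 1.19 ± 0.30 (SE, n = 3 lines), with p = 0.25 in a two-sided exact permutation test over lines, the smallest p that 3 lines allow. This ratio was chosen after the values were seen. Once all 3 changes share a sign the test can give no other p, so it adds nothing to the signs.

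Sulfiredoxin was almost silent in controls. Srxn1 (chromosome 2, 152105516 to 152111376) had 0, 1 and 0 counts in the controls of lines 240, 242 and 352, and 4, 55 and 2 counts in the treated libraries. The 3 counts that a count of 0 allows are 0.744 CPM for the 240 control and 0.227 CPM for the 352 control. Unscaled treated levels were 1.27 CPM in line 240 (exact 95% interval 0.345 to 3.24), 90.9 CPM in line 242 (68.5 to 118) and 0.145 CPM in line 352 (0.0176 to 0.525). The gene was thus at substantial level in 1 library of 6. In line 242 the ratio of treated to control CPM was 305, with an exact counting interval of 52.5 to 12260. In line 240 the interval of the treated library overlapped that of the control (0 to 0.915 CPM), and in line 352 both values were under their limits. Srxn1 did not pass the filter on low counts and was not tested in either fit.

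The Srxn1 value of line 242 came from the library with the fewest counts and the highest mitochondrial share. Of 40447 genes with 0 or 1 count in the control of line 242, 1004 reached 10 counts or more after treatment. Srxn1 was among the 6 that reached 55 or more (0.0148%). Markers of other cell types were higher there too, and some also in the other treated libraries. The B-cell gene Pax5 had 1, 0 and 0 counts in the controls of lines 240, 242 and 352 and 7, 43 and 16 counts in the treated libraries, whereas Cd79b was at 0 in all 3 treated libraries. Pax5 passed as higher in lines 240 and 352 (log2 fold change 4.27 ± 1.21, adjusted p = 0.0412). Unscaled sums for 3 fibroblast markers reached 36.4 CPM in the treated library of line 242 against at most 0.298 CPM in controls. That sum came from few counts, 14 of Col1a1, 3 of Col1a2 and 5 of Pdgfra. Those for 4 thymic epithelial markers reached 24.8 against 0.227 CPM, from 11 counts of Epcam and 4 of Foxn1, with Krt5 and Krt8 at 0 there. The sum of 5 myeloid markers, with Lyz2 at 0, went from 17.9 to 46.3 CPM in line 242, from 10.4 to 10.1 CPM in line 240 and from 45.2 to 34.7 CPM in line 352. The 2 endothelial markers summed to 42.3 to 72.4 CPM in controls and 34.7 to 62.0 CPM treated, nearly all Pecam1, while Cdh5 had 0 counts in every control and 1, 11 and 1 counts in the treated libraries of lines 240, 242 and 352. The 7 erythroid markers summed to at most 0.633 CPM in any library, with Hba-a2, Hbb-bs and Hbb-bt at 0. The part of these in the Srxn1 value was not tested.

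In the pentose phosphate pathway, both oxidative enzymes rose in lines 240 and 352, as did transaldolase, and transketolase did not pass. Pgd (chromosome 4, 149149991 to 149166771) went from 102 to 202 CPM in line 240, from 82.9 to 338 CPM in line 242 and from 146 to 242 CPM in line 352. Every treated library was above every control, a pattern that 2.95% of all tested genes showed and, on this scale, no other tested member. On unscaled CPM, compared after the values were seen, Pgd and Prdx1 showed it, with 3.35% of all tested genes. In log2 terms the change was 1.26 ± 0.31 across the 3 lines (adjusted p = 0.842) but 0.85 ± 0.11 for lines 240 and 352 alone (adjusted p = 7.99e-04), the smallest p of the members in that fit.

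G6pdx (chromosome X, 74409483 to 74429194), which catalyzes the first and rate-limiting step of the pathway, went from 97.8 to 128 CPM in line 240, from 78.2 to 201 CPM in line 242 and from 132 to 255 CPM in line 352. It was higher in each line, least in line 240, whose treated library lay below the control of line 352. Over 3 lines the log2 fold change was 0.92 ± 0.24 (SE, adjusted p = 0.842). Lines 240 and 352 gave 0.71 ± 0.13 (adjusted p = 0.00565). That call was lost with DESeq2 (log2 fold change 0.67, adjusted p = 0.0585). Exons of G6pdx overlap those of Ikbkg on the opposite strand, and strand use in counting is not stated. Ikbkg itself had a log2 fold change of -0.18 ± 0.12 in lines 240 and 352 (adjusted p = 0.386), opposite in sign to G6pdx.

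Taldo1 (chromosome 7, 141392199 to 141402968), transaldolase, went from 159 to 225 CPM in line 240, from 152 to 153 CPM in line 242 and from 190 to 233 CPM in line 352. The rise was modest in lines 240 and 352, and in line 242 the values were nearly equal. In log2 terms the change was 0.31 ± 0.15 across the 3 lines (adjusted p = 0.842) but 0.39 ± 0.11 for lines 240 and 352 alone (adjusted p = 0.0381). That call was lost with lane 2 alone (adjusted p = 0.0509), with a filter at a mean of 10 CPM (0.0591) and with DESeq2 (0.228).

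Tkt (chromosome 14, 30548359 to 30574720), transketolase, went from 520 to 544 CPM in line 240, from 445 to 230 CPM in line 242 and from 700 to 661 CPM in line 352. The libraries of lines 240 and 352 were close to their controls, and line 242 was lower. Over 3 lines the log2 fold change was -0.27 ± 0.24 (SE, adjusted p = 0.860). Lines 240 and 352 gave -0.012 ± 0.12 (adjusted p = 0.965). The latter was 0.012 with lane 2 alone, so no direction can be given for Tkt in these lines.

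The ratio of oxidative to non-oxidative counts (G6pdx plus Pgd over Tkt plus Taldo1) was nearly constant among controls, at 0.293, 0.270 and 0.312 in lines 240, 242 and 352. It was 0.428, 1.41 and 0.555 after treatment, or 1.46-fold, 5.21-fold and 1.78-fold the control. Every treated library exceeded every control, and the spread among the treated libraries came mainly from line 242. The mean log2 change was 1.25 ± 0.57 (SE, n = 3 lines), with p = 0.25 in a two-sided exact permutation test over lines, again the smallest possible. A ratio of Txnrd1 to Prdx1 was also computed, with folds of 1.61, 1.59 and 1.15 and the same p of 0.25 in the exact permutation test, and all 3 adjusted values are likewise 0.25. These ratios were chosen after the values were seen.

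**Figure D2:**
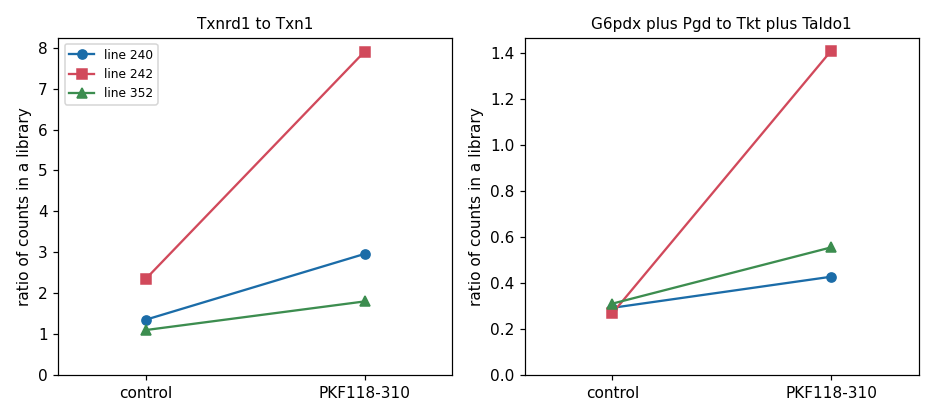
Ratio of counts within each library (vertical axes, from 0) for Txnrd1 to Txn1 (left) and for the oxidative to the non-oxidative pentose phosphate genes (right), with 1 point per library and a line joining control and treated cells of a cell line. Both ratios are higher after treatment in all 3 lines, and on the right the controls lie together at 0.270 to 0.312.

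Nqo1 (chromosome 8, 107388225 to 107403206) was the member that depended most on the line. Controls had 1.24 CPM in line 240 and 1.56 CPM in line 242 but 60.8 CPM in line 352. Treated libraries had 11.1, 12.0 and 107 CPM in the same order. Line 352 was therefore higher before treatment than the other lines after it. In counts, line 240 went from 5 to 35, line 242 from 5 to 7 and line 352 from 831 to 1555. Ratios of unscaled CPM with exact counting intervals were 8.93 (3.48 to 29.2), 7.76 (2.12 to 31.0) and 1.80 (1.65 to 1.96). The interval of line 352 lay below those of the other lines, by counting error alone and with 1 library each. In log2 terms the change was 1.71 ± 0.53 across the 3 lines (adjusted p = 0.842) but 1.05 ± 0.24 for lines 240 and 352 alone (adjusted p = 0.0147). In lines 240 and 352 it lost its call with DESeq2 (log2 fold change 1.87, adjusted p = 0.465) and with a filter at a mean of 10 CPM (adjusted p = 0.0776). Without line 352, the other lines gave 3.05 and no call.

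Nqo1 was also the only member whose level differed between the 3 lines (adjusted p = 0.0342), a difference found in 5.32% of 10331 genes. Between lines 240 and 352 alone, where 44.7% of genes differed, 5 members did: Nqo1, G6pdx, Pgd, Txnrd1 and Tkt. Txnrd1 had its highest level in line 242 in both groups, although over 3 lines the difference did not pass (adjusted p = 0.0716).

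Me1 (chromosome 9, 86581371 to 86695953), the cytosolic malic enzyme, was not detected in the 3 controls and had 1, 2 and 1 counts after treatment in lines 240, 242 and 352. These counts are below the 3 that a count of 0 allows in each library, so no change was detectable at this depth and Me1 was not tested. Other gene models match stretches of Me1 sequence at over 98% identity. Of these only Gm7329, over 210 bases, was counted, with 0 counts. Gm7049 (1638 bases) and Gm48795 (1159 bases) were not among the counted genes, so reads lost to them could not be checked.

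**Figure D3:**
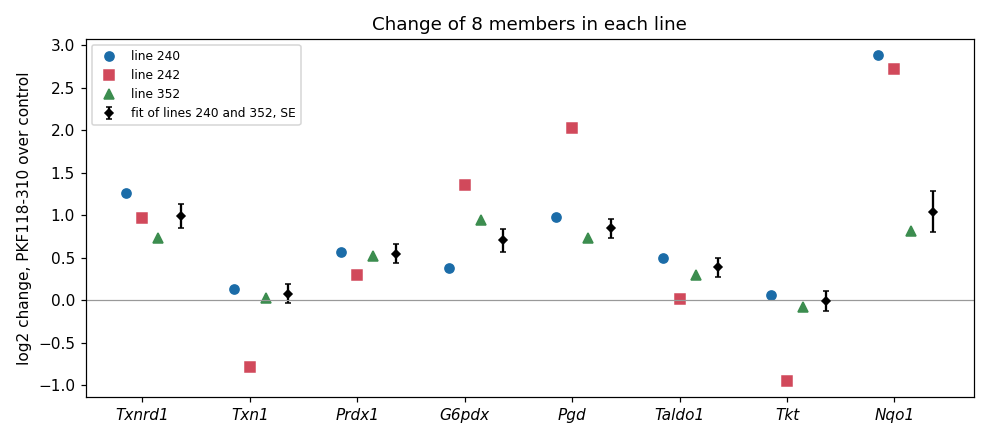
Difference in log2 CPM between treated and control libraries within a line (vertical axis) for 8 members, with 1 point per line and, in black, the fold change and SE of the fit of lines 240 and 352. Txn1 and Tkt lie near 0 in lines 240 and 352 and at -0.78 and -0.95 in line 242, whereas Pgd and G6pdx are highest in line 242.

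Other genes of the pathway are given by list, with the 3 most abundant of each list named. Over 19 further thioredoxin, peroxiredoxin and glutaredoxin genes tested in lines 240 and 352, 1 rose, 2 fell and 16 did not pass, with a median log2 fold change of 0.070. The riser was Prdx6, a peroxiredoxin that uses glutathione, at 0.40 ± 0.10 (adjusted p = 0.0279). Prdx2 had 0.070 ± 0.10. Txnip, which binds and inhibits thioredoxin, fell by 0.76 (SE 0.14, adjusted p = 0.00635), with log2 changes of -1.11 in line 240, 0.67 in line 242 and -0.43 in line 352. The other gene that fell, Txnrd3, was named after its value was seen (-0.79 ± 0.23, adjusted p = 0.0458). Mitochondrial thioredoxin reductase Txnrd2, also named afterwards, had -0.18 ± 0.20. Of the 3 thioredoxin reductase genes, only Txnrd1 was higher in lines 240 and 352.

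Of 9 further pentose phosphate pathway genes tested in lines 240 and 352, 0 rose, 1 fell and 8 did not pass, with a median of 0.11. Prps1, which makes phosphoribosyl pyrophosphate from ribose 5-phosphate, fell by 0.44 (SE 0.11, adjusted p = 0.0213) and was lower in all 3 lines. Its paralog Prps2 had -0.031 ± 0.12 and the epimerase Rpe 0.11 ± 0.11. A difference between this list and the members was not tested.

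Of 11 other NADPH-producing enzymes and NAD kinases (Nadk and Nadk2, which make NADP) tested in lines 240 and 352, 1 rose, 4 fell and 6 did not pass, with a median of -0.40. Mitochondrial malic enzyme Me2 fell by 0.61 (SE 0.11, adjusted p = 0.00564) and isocitrate dehydrogenase Idh2 fell by 0.50 (SE 0.11, adjusted p = 0.0149). Idh1, its cytosolic counterpart, and the transhydrogenase Nnt were named after their values were seen. Idh1 went from 43.7 to 14.0 CPM in line 240, from 30.3 to 22.3 CPM in line 242 and from 31.5 to 17.0 CPM in line 352 (lines 240 and 352: -1.17 ± 0.20, adjusted p = 0.00345). Nnt, with 23 and 7 counts in line 240 and 63 and 16 in line 352, had -1.79 ± 0.51 (adjusted p = 0.0409). The folate enzyme Mthfd1 rose by 0.45 ± 0.11 (adjusted p = 0.0212) but had -1.35 in line 242.

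At the branch point where glucose 6-phosphate enters either glycolysis or the pentose phosphate pathway, 5 of 6 tested genes fell in lines 240 and 352, with a median of -0.71, whereas the list had a median change of 0.40 in line 242. Gpi1, the isomerase that draws glucose 6-phosphate into glycolysis, went from 2496 to 1568 CPM in line 240 and from 1562 to 567 CPM in line 352 (fell by 1.07, SE 0.17, adjusted p = 0.00308). In line 242 it went from 578 to 1463 CPM, opposite to the other lines. Pfkp, a phosphofructokinase, fell by 1.16 (SE 0.21, adjusted p = 0.00552) and had a log2 change of 1.76 in line 242. Hexokinase Hk1 did not pass (-0.31 ± 0.11, adjusted p = 0.0996). G6pdx and Pgd were higher than control in all 3 lines, including line 242, where Gpi1 was higher too.

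Of 12 further NRF2 targets tested in lines 240 and 352, 7 rose, 0 fell and 5 did not pass, with a median of 0.45. The ferritin genes Fth1 and Ftl1, which store iron, rose by 0.60 ± 0.13 and 0.64 ± 0.11 (adjusted p = 0.0131 and 0.00386). Gsr, glutathione reductase, which like Txnrd1 spends NADPH, had 0.35 ± 0.11 (adjusted p = 0.0623). Among 9 genes that control NRF2, 1 rose, 1 fell and 7 did not pass. Sqstm1, which binds Keap1, rose by 0.49 ± 0.11 (adjusted p = 0.0142), and Cul3 (-0.013 ± 0.11) and Bach1 (-0.24 ± 0.12) did not pass. Maff, a small Maf gene named after its value was seen, fell by 2.88 (SE 0.54, adjusted p = 0.00587), with 33 and 7 counts in line 240, 1 and 5 in line 242 and 93 and 8 in line 352. The other small Maf genes of the list had the opposite sign and did not pass, Mafg at 0.32 ± 0.13 and Mafk at 0.31 ± 0.16. They were more abundant, with mean levels of 102 and 46.9 CPM against 4.44 for Maff. Nfe2l2 mRNA, also named afterwards, had 0.16 ± 0.11 (adjusted p = 0.378).

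**Figure D4:**
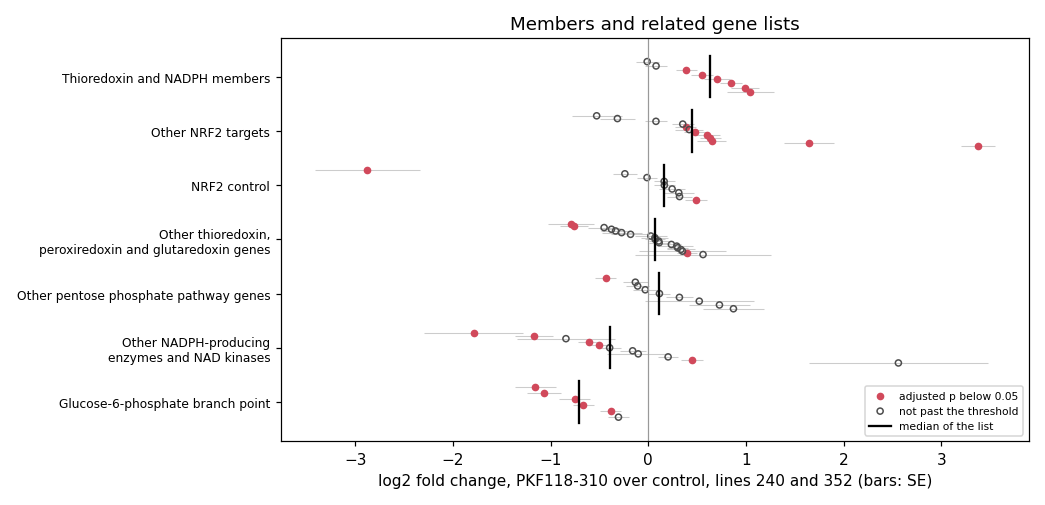
Log2 fold change in lines 240 and 352 (horizontal axis, bars SE) for each tested gene of the members and of 6 related lists, filled where the adjusted p is below 0.05, with a black bar at the list median. The members and the other NRF2 targets lie mostly right of 0, the other NADPH-producing enzymes with the NAD kinases and the branch-point genes mostly left of it.

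Over the 6 libraries, the 5 genes whose log2 CPM was most like the mean standardized profile of the 8 members were Snx11 (Pearson r = 0.986), Gbp9 (0.983), Clcn7 (0.982), Psmc2 (0.979) and Arpc4 (0.977), among 8483 genes. These values describe 6 libraries that share lines and treatment.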

How the data were processed

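Poly(A)-selected, stranded mRNA libraries of 3 lines were sequenced in 2 lanes each. Per the labels, the 12 deposited files hold raw gene counts, 1 per library and lane. Alignment and counting tools appear in the submitters' processing notes as HISAT2 and HTSeq, on mm10, and as TopHat in the study's methods. Their versions, annotation and strand setting: not given in the sources used here. Lane counts were summed, since the titles of a library's pair of samples differ only in lane, although a supplementary legend of the study speaks of separate cultures in each line. Chi-square per degree of freedom between the files of a pair was 0.98 to 1.02 in lines 240 and 242 and 2.01 and 2.05 in line 352, where a value near 1 is sampling noise alone.

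Tests used edgeR 4.0.16 under R 4.3.3 (filterByExpr with a minimum count of 10, TMM, quasi-likelihood F test, Benjamini-Hochberg over all genes tested, threshold 0.05) and the cell line as a block. Libraries of a line come from the same cells, and their deviations from the group means correlated at 0.674 (line 240), 0.302 (line 242) and 0.789 (line 352). The fit was repeated on lines 240 and 352. CPM are scaled by TMM unless called unscaled. Log2 changes within a line used a prior count of 2 and have no test. A count of 0 allows up to 3 counts, and intervals are exact binomial 95% intervals. Both cover counting error only. DESeq2 1.42.0 and limma 3.58.1 served as alternatives, with other filters, scalings, single lanes and each line left out. Scripts were tested on simulated counts. Gene starts in the files count from 0 and were shifted by 1. Exon lengths are from GENCODE vM21, with the exons of all transcripts of a gene merged.

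Every member is named, and of each related list the 3 genes with the highest mean CPM. Members, lists and tests were chosen with earlier results of these data known. The summed level of the B-cell marker list is not reported here.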

Additional observations from a re-analysis of the deposited data

Results flagged for a closer look

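Several genes had a log2 change in 1 line that was opposite in sign to the other 2. With 1 library per line and group, these differences were not tested, and some of the values lay close to 0. Line 242, whose treated library had 604984 counts and a mitochondrial share of 11.8%, was the odd line for most of them. Txn1 had a log2 change of -0.78 in line 242, against 0.14 and 0.025 in lines 240 and 352. Among the other redox genes, line 242 had -0.87 for Prdx2 and -0.02 for Prdx6, which were above 0 elsewhere, and 0.67 for Txnip, which was below 0 elsewhere. The epimerase Rpe had -0.76 and the folate enzyme Mthfd1 -1.35 in line 242. The glycolytic genes Gpi1 (1.34), Pfkp (1.76) and Hk1 (0.29) were above 0 in line 242 and below 0 in lines 240 and 352. In line 240, Tkt had 0.06 and Prps2 0.18, where the other lines were below 0. Tkt had only -0.083 in line 352, so no direction is given for it in these lines. In line 352, Bach1 had -0.47, where the others were above 0, by only 0.032 in line 240.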

How the results depend on the processing

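In 3 lines, 0 members and 0 genes passed with the replicate block, and 0 and 0 as well with no replicate block, which drops the pairing by line. Counts of members higher, genes higher and genes lower in 3 lines were 2, 35 and 10 with DESeq2, 2, 56 and 29 with the likelihood ratio test, and 5, 327 and 474 with limma voom. With no filter they were 3, 260 and 52, and the median log2 fold change of all genes was 0.513. Those 3 members were Pgd, Nqo1 and either Srxn1 or Me1, which had 0 or 1 count in each control. Leaving out each line in turn gave 0 to 6 members higher, 3 to 589 genes higher and 0 to 696 lower, the highest values being those without line 242. Members differing between the 3 lines numbered 1, and 2 with DESeq2, with a mean of at least 10 CPM or with lane 1 alone, 3 with the likelihood ratio test, 4 with limma voom and with no filter, and 0 to 5 when a line was left out. In lines 240 and 352, the 6 members higher, 589 genes higher and 696 lower became 0, 0 and 0 with no replicate block and 3, 107 and 158 with DESeq2. They became 263 genes higher and 344 lower at a mean of at least 10 CPM (4 members) and 349 and 404 with lane 2 alone (5 members). No line could be left out there with a test. Txn1 in 3 lines had -0.16, and 0.0080 with limma voom. Leaving out a line gave it -0.35 to 0.079, the latter without line 242. Tkt in lines 240 and 352 had -0.012, and 0.012 with lane 2 alone. No other direction of a member turned. The cause of these differences was not tested. In the treated library of line 242 a count of 0 allows 4.96 CPM, which limits Srxn1 and Me1.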
